A study of Mus musculus with 28 samples.

Results

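The genes described here are the 10 core genes of MHC class I antigen presentation in the mouse ovary: the heavy chains H2-K1 and H2-D1, beta-2-microglobulin (B2m), the peptide transporter subunits Tap1 and Tap2, tapasin (Tapbp), the immunoproteasome subunits Psmb8, Psmb9 and Psmb10, and the class I transactivator Nlrc5. They were chosen by name, with earlier results of these data known. Symbols were matched to gene identifiers, and all 10 were found among the 44674 genes of the bulk table and among the 23623 genes detected in 3 or more single cells. The females were wild-type (WT, with C57BL/6J a strain listed in the paper) or homozygous for the Chek2tm1b(EUCOMM)Hmgu allele (Chek2-/-). The Chek2-/- females carry the disrupted checkpoint kinase gene in every cell. Both genotypes received whole-body ionizing radiation (IR) at 0.5 Gy or sham treatment (nonIR). The paper does not state the strain background of the Chek2-/- line, so background and genotype cannot be told apart. Ovaries were taken 6 h later. Bulk RNA-seq was done on 24 libraries, 6 per combination of genotype and dose, each from the paired ovaries of a female aged 7 to 9 days. Single-cell RNA-seq was done on 4 libraries, 1 per combination, each pooled from 4 females aged 7 days. The study asked which parts of the ovarian response to DNA damage need CHEK2, and the comparisons below ask this of the class I genes.

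MHC class I molecules display peptides from inside the cell to CD8 T cells and natural killer cells. Proteasomes cut proteins into peptides, the TAP transporter moves the peptides into the endoplasmic reticulum, tapasin holds the empty class I molecule next to TAP, and a loaded heavy chain leaves for the cell surface only when it is paired with B2m. Interferons act through IRF1 and NLRC5, among other factors, to switch on most of these genes together and to replace catalytic subunits of the constitutive proteasome by those of the immunoproteasome. Germ cells and early embryonic cells are known for low class I display.

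Of the 10 genes, 7 lie on chromosome 17 in the MHC (GRCm38/mm10, GENCODE annotation). Psmb9, Tap1, Psmb8 and Tap2 lie next to one another there between 34181987 and 34216321. Psmb9 and Tap1 start head to head and their annotated spans overlap, so reads from the overlap cannot be assigned to 1 of them unless strand is used. B2m is on chromosome 2, and Psmb10 and Nlrc5 are on chromosome 8.

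The promoters of the heavy chains, B2m and Tap1 are shown because H2-K1, H2-D1 and B2m encode the class I molecule itself and share upstream letters, and Tap1 is the gene with the largest difference after IR in WT bulk ovaries. Each line gives the 250 bases before the RefSeq start site of the gene on its own strand (GRCm38.p6): H2-K1 at chr17:34000348-34000597 (minus strand), H2-D1 at chr17:35262844-35263093 (plus), B2m at chr2:122147437-122147686 (plus) and Tap1 at chr17:34187306-34187555 (plus). Capitals mark 4 motifs read on either strand, namely the IRF core AANNGAAA, the X2-like TGACG, the Y box CCAAT and the NF-kB consensus.
H2-K1: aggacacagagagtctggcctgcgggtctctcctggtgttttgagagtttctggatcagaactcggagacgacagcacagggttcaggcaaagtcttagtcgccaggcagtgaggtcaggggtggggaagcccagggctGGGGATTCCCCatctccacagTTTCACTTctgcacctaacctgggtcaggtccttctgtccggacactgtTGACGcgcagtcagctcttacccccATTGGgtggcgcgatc
H2-D1: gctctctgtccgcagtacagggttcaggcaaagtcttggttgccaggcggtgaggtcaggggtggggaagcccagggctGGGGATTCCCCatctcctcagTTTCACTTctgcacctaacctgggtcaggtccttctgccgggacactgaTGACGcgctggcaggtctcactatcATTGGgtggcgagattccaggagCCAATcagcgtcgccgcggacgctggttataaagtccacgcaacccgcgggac
B2m: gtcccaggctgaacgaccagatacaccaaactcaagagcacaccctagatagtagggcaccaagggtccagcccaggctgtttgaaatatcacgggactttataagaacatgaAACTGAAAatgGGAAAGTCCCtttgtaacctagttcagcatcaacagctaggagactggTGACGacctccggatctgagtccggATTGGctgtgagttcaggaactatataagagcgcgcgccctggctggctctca
Tap1: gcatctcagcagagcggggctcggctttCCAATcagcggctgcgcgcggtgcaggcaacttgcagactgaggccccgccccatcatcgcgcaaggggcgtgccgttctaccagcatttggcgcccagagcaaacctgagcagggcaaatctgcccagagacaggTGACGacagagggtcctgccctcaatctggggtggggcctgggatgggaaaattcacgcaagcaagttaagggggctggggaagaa
The IRF core, the X2-like motif and the Y box were all present in the promoters of H2-K1, H2-D1 and B2m. Only 1.08% of the 32851 promoters in the RefSeq table hold all 3, with 21.3%, 17.8% and 33.8% holding the IRF core, the X2-like motif and the Y box. The NF-kB consensus, found in 3.9% of promoters, was also present in these 3 genes. In H2-K1 and H2-D1 the order and spacing of the NF-kB consensus, the IRF core, the X2-like motif and the first Y box were the same, and H2-D1 has a further Y box 53 bases before its start site. A further RefSeq start site of H2-K1, not printed, has such a Y box 6 bases before it. The IRF core began 90 and 150 bases before the start site and the X2-like motif 41 and 101 bases before it. The aligned parts of these promoters were identical at 166 of 190 bases (87.4%), with a longest identical run of 47 bases. Tap1 and Psmb9 share 225 of the 250 bases on opposite strands, and this shared stretch holds an X2-like motif and a Y box but no IRF core by these letters. Tapbp held a Y box alone, Psmb8 held neither the IRF core, the X2-like motif nor the Y box but a GAS motif (TTCNNNGAA, in 7.02% of promoters), and Psmb10 held none of the 5. A match is a description of letters and does not show binding. Tap2 and Nlrc5 are named without a promoter.

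Bulk libraries held 17825167 to 32605747 estimated counts. Chek2 itself was at 18.5 to 24.6 counts per 1000000 (CPM) in the 12 WT libraries and at 2.88 to 4.53 CPM in the 12 Chek2-/- libraries. The libraries of the genotypes did not overlap. Marker genes of oocytes, granulosa cells, fibroblasts and the other ovarian cell types were present in every group. Replicate 6 of both Chek2-/- groups stood apart, with a summed level of 10 oocyte markers of 1125 CPM (IR) and 998 CPM (nonIR) against 1845 to 2077 CPM in the other Chek2-/- libraries, and of 9 tested epithelial markers of 1097 and 1299 CPM against 482 to 863 CPM. WT IR replicate 4 also had a high epithelial sum (1147 CPM, against 461 to 747 CPM in the other WT IR libraries), with oocyte markers at 1928 CPM. Several differences that leaving out the Chek2-/- replicates 6 moved are given with and without them. A library of each IR group carried a high neutrophil marker sum (1316 CPM in WT IR replicate 3 and 1364 CPM in Chek2-/- IR replicate 2, against medians of 1.59 and 2.11 CPM). The summed erythroid markers were at 10450 CPM in Chek2-/- nonIR replicate 5 and 7047 CPM in Chek2-/- IR replicate 2, against 198 to 926 CPM in the other libraries, and the former library had the highest Tap1 of its group.

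No class I gene passed the threshold between IR and nonIR ovaries of WT females in the main edgeR fit, and Tap1 came nearest to it. In edgeR (quasi-likelihood, Benjamini-Hochberg over 26790 genes), 0 of 10 had an adjusted p of at most 0.05, where 2.41% of all genes tested did. At an unadjusted p under 0.05 there was 1 (Tap1), against 11.4% of all genes. DESeq2 called 1 (Tap1) and limma-voom called 0. The median log2 difference of the 10 genes was 0.11, and that of all genes was -0.0041.

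Tap1 encodes a subunit of the peptide transporter. Its lowest, median and highest values were 11.7, 13.0 and 20.7 CPM in WT nonIR ovaries, 16.2, 20.4 and 32.4 CPM in WT IR, 10.9, 12.2 and 15.4 CPM in Chek2-/- nonIR, and 11.1, 13.1 and 26.0 CPM in Chek2-/- IR. The WT groups overlapped because nonIR replicate 5 was higher than some IR libraries, but all 6 IR libraries lay above the nonIR mean. The log2 difference between IR and nonIR was 0.63 in WT (SE 0.19, 95% interval 0.231 to 1.034, edgeR adjusted p = 0.0942). In the same comparison 1 of 10 oocyte markers was called lower (median log2 difference -0.20, background 2.41%), while 10 of 10 macrophage markers and 6 of 6 oviduct and uterine epithelium markers had values above 0 (medians 0.30 and 1.196) with none called. Neutrophil markers were above 0 in 7 of 7 (median 6.67), with the high sum in IR replicate 3, and erythroid markers in 1 of 6 (median -0.45), with none called. The part of these cell types in the Tap1 value was not tested. The corresponding value in Chek2-/- ovaries was 0.31 (SE 0.19, edgeR adjusted p = 1), and the high value of this group belonged to replicate 6. Leaving that library out brought the Chek2-/- difference to 0.09. The difference between these, the interaction of genotype and IR, was 0.32 (SE 0.27, edgeR adjusted p = 0.835), so a different response of the genotypes was not shown in bulk. Leaving out 1 library moved it from 0.19 (without WT IR replicate 6) to 0.56 (without Chek2-/- IR replicate 6).

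The call for Tap1 depended on the tool, as given above, on single libraries and on a replicate block. With replicate numbers as a block, edgeR called Tap1 for IR in WT and between irradiated genotypes, with values in the last section. The labels do not say that these numbers pair samples. With no block and without WT nonIR replicate 5, the WT difference of Tap1 was 0.78 with an edgeR adjusted p of 0.0297. Without WT IR replicate 6 it was 0.50 with an adjusted p of 0.237. Irradiated Chek2-/- ovaries had less Tap1 than irradiated WT ovaries by a log2 difference of -0.53 (SE 0.19, edgeR adjusted p = 0.0836). In the same comparison 4 of 6 perivascular and 3 of 9 fibroblast markers were called lower in Chek2-/- and 5 of 10 oocyte markers higher (median log2 differences -0.91, -0.33 and 0.28, background 9.84%). Of the other lists, 2 of 5 B cell markers and 1 of 7 neutrophil markers were called higher, and 1 of 7 T and NK, 1 of 7 pericyte and 1 of 6 oviduct and uterine epithelium markers lower, with epithelial markers at a median of -0.43 and none called. Their part in the Tap1 value was not tested. Without Chek2-/- IR replicate 6 this was -0.76 with an edgeR adjusted p of 0.00427, past the threshold.

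**Figure D1:**
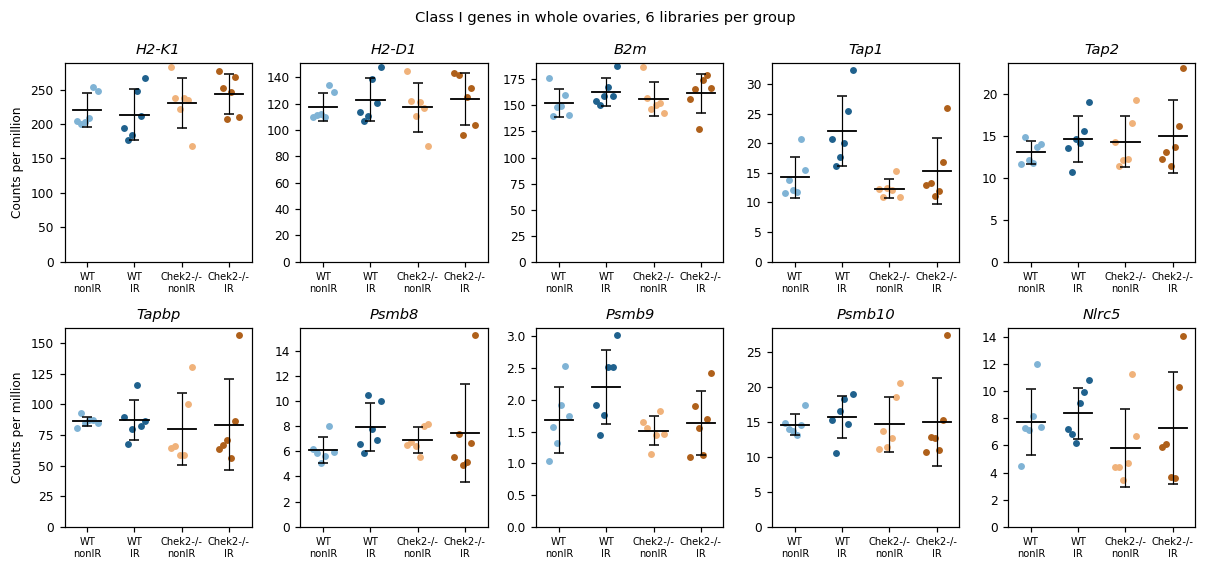
CPM of each class I gene in the 24 bulk libraries (linear axis from 0), with a point per library, a line at the group mean and bars of 1 SD (n = 6). WT IR has the highest group mean for Tap1, with libraries at 16.2 to 32.4 CPM that overlap the other groups, and a single Chek2-/- IR library stands far above its group for Tapbp, Psmb8 and Psmb10.

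The heavy chains present the peptide. H2-K1 had lowest, median and highest values of 200.5, 207 and 254 CPM in WT nonIR, 176, 202 and 267 CPM in WT IR, 169, 236 and 283 CPM in Chek2-/- nonIR, and 207, 250 and 278 CPM in Chek2-/- IR. The 4 groups overlapped throughout, and the largest of the log2 differences, 0.19 between irradiated Chek2-/- and WT ovaries (SE 0.11), had an edgeR adjusted p of 0.329. H2-D1 ranged from 87.6 to 145 CPM in nonIR libraries and from 96.0 to 148 CPM in IR libraries, with log2 differences after IR of 0.07 (SE 0.11) in WT and 0.08 (SE 0.11) in Chek2-/- ovaries. H2-K1, H2-D1 and the other classical and H2-Q genes are near-identical in part of their exons, so reads may have been split among them and their values are uncertain. B2m, the light chain that all of them need, kept to 128 to 188 CPM over all libraries. Its difference after IR was 0.09 (SE 0.08) in WT and 0.05 (SE 0.08) in Chek2-/-, and the 95% interval in WT, -0.067 to 0.257, leaves out any change as large as that estimated for Tap1.

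Tap2, the partner of Tap1, was at 11.7 to 14.8 CPM in WT nonIR and 10.6 to 19.0 CPM in WT IR, a log2 difference of 0.17 (SE 0.16, edgeR adjusted p = 0.815). This was 0.09 without WT IR replicate 6 and 0.25 without WT IR replicate 2. Tapbp, which bridges TAP and the heavy chain, was nearly level in WT (80.9, 85.8 and 92.7 CPM in nonIR, and 67.5, 84.2 and 116 CPM in IR, with a log2 difference of 0.01, SE 0.21), and its highest value there was that of IR replicate 4. In the Chek2-/- groups its highest values, 131 CPM (nonIR) and 157 CPM (IR), were those of replicate 6, and the other libraries were at 58.6 to 100.3 CPM and 55.9 to 86.6 CPM. Those libraries are the ones with few oocyte and many epithelial markers, and the part of cell makeup in their values was not tested. In bulk tissue, fewer cells of a type and less RNA per cell cannot be told apart.

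The immunoproteasome subunits replace the catalytic subunits of the constitutive proteasome. Psmb8 had lowest, median and highest values of 5.04, 5.87 and 8.0 CPM in WT nonIR and 5.90, 7.31 and 10.5 CPM in WT IR. The groups overlapped, and the log2 difference was 0.38 (SE 0.22, edgeR adjusted p = 0.578). Its highest WT IR value came from replicate 3, the library with the high neutrophil sum. That library also had macrophage markers summing to 164.9 CPM and T and NK cell markers to 8.57 CPM, against 43.1 to 63.7 and 1.49 to 2.46 CPM in the other WT IR libraries. Without it the difference was 0.28, and the part of those cells was not tested. Psmb9 gave the same estimate, 0.38 (SE 0.22, edgeR adjusted p = 0.575), from only 1.03 to 3.03 CPM in WT. In Chek2-/- ovaries both were at 0.12 and 0.11 (SE 0.22 each). Psmb10 differed by 0.11 (SE 0.20) in WT (0.06 without IR replicate 6 and 0.21 without IR replicate 2) and by 0.03 (SE 0.20) in Chek2-/- ovaries, where replicate 6 again was highest with 20.6 and 27.5 CPM. Psmb8 in the irradiated Chek2-/- replicate 6 was 15.2 CPM, with the other 5 libraries at 4.91 to 7.40 CPM. Without both Chek2-/- libraries numbered 6, the difference between irradiated genotypes was -0.43 for Psmb8, -0.33 for Psmb10 and -0.35 for Tapbp, with edgeR adjusted p of 0.0714, 0.125 and 0.0910, and with them it was -0.09, -0.07 and -0.06. Tapbp was at 0.04 there without WT IR replicate 4. Nlrc5, the transactivator of class I promoters, varied widely between replicates, from 4.47 to 12.03 CPM within WT nonIR alone, and its difference after IR was 0.11 (SE 0.31) in WT and 0.32 (SE 0.31) in Chek2-/-. Single libraries moved the Nlrc5 values: without WT nonIR replicate 1 the WT difference was -0.0013, and in Chek2-/- it was 0.62 without nonIR replicate 5. Between irradiated genotypes the Nlrc5 difference was -0.515 without Chek2-/- IR replicate 6 and -0.0763 without Chek2-/- IR replicate 4. Its interaction was 0.109 without Chek2-/- IR replicate 6 and -0.507 without Chek2-/- nonIR replicate 5.

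Without Chek2-/- IR replicate 6, the differences after IR in Chek2-/- ovaries were -0.22 for Tapbp, -0.22 for Psmb8, -0.045 for Psmb9, -0.24 for Psmb10, -0.11 for Tap2 and 0.02 for Nlrc5. The first 5 were above 0 with that library, and none passed the threshold either way.

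Between nonIR ovaries of the genotypes, 0 of 10 class I genes passed the edgeR threshold (5.34% of all genes did) and 0 had an unadjusted p under 0.05, where 21.6% of all genes did. The estimates ran from -0.42 (Nlrc5, SE 0.31) to 0.17 (Psmb8, SE 0.22), and the Nlrc5 value was -0.71 without Chek2-/- nonIR replicate 5 and -0.24 without WT nonIR replicate 5. Between irradiated genotypes 0 of 10 passed (background 9.84%), 1 had an unadjusted p under 0.05 (Tap1, background 23.6%), and DESeq2 and limma-voom each called Tap1. After IR in Chek2-/- ovaries 0 of 10 passed (background 0.0112%), 0 had an unadjusted p under 0.05 (background 4.4%), and the interaction gave 0 on both counts (background 1.03% and 9.14%). DESeq2 and limma-voom called none in these 3 comparisons. No class I gene had groups that did not overlap in any comparison, against 2.56% of all genes for IR in WT, 0.149% for IR in Chek2-/-, 3.22% between nonIR genotypes and 5.3% between irradiated genotypes. These comparisons share groups, so their values are not independent of each other.

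The wider pathway was followed in 7 lists. Of 17 other class I heavy chain and class I-like genes, 1 passed between WT IR and nonIR ovaries, and no gene of the other 6 lists did, where 2.41% of all genes tested passed. In the first list 2 more genes, H2-Bl and H2-M5, named after their values were seen, had log2 differences of -1.63 and -0.38 with an unadjusted p under 0.05 (background 11.4%), and edgeR adjusted p of 0.227 and 0.308. The gene that passed was H2-Q2, a classical-like heavy chain of the H2-Q cluster, with lowest, median and highest values of 0.358, 0.536 and 0.902 CPM in nonIR and 0.569, 1.22 and 1.85 CPM in IR ovaries. It rose by a log2 difference of 1.12 (SE 0.25, edgeR adjusted p = 0.00959) and was above the nonIR mean in 6 of 6 IR libraries. In Chek2-/- ovaries H2-Q2 stayed between 0.287 and 0.590 CPM in both groups, and irradiated Chek2-/- ovaries had less of it than irradiated WT ovaries by -1.56 (SE 0.25, edgeR adjusted p = 0.000169). The interaction for H2-Q2 was 1.19 with an edgeR adjusted p of 0.156.

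Among 10 peptide loading and trimming genes, the abundant chaperones Hspa5, Calr and Canx differed between WT IR and nonIR by log2 0.05, 0.02 and 0.10, and among them Canx had an unadjusted p of 0.0204 and an edgeR adjusted p of 0.287. Of 18 regulators none passed. Irf9, an interferon response factor chosen after its value was seen, differed by 0.54 (SE 0.17, edgeR adjusted p = 0.113). The constitutive proteasome genes (0 of 10), interferons and their receptors (0 of 7 tested of 11), class II genes (0 of 7) and receptors of class I (0 of 5 tested of 7) gave no call in edgeR for IR in WT. At an unadjusted p under 0.05 (background 11.4%), 1 of 10 proteasome genes and 1 of 7 tested interferon and receptor genes were lower. There were 0 among class II genes and receptors of class I, and 3 higher and 1 lower among the 18 regulators. Between nonIR genotypes 3 of 10 loading and trimming genes and 1 of 18 regulators passed, and none of the other lists (background 5.34%). Tpp2 was higher in Chek2-/- by 0.27 (SE 0.05, edgeR adjusted p = 0.00173) and Ide lower by -0.78 (SE 0.14, edgeR adjusted p = 0.00367), both cytosolic peptidases. Calr, the chaperone of the loading complex, was lower by -0.14 and the factor Creb1 higher by 0.22. In the same comparison 3 of 9 fibroblast and 2 of 7 pericyte markers were called lower in Chek2-/-. Higher calls were 1 of 10 granulosa, 1 of 5 theca and 1 of 6 oviduct and uterine epithelium markers. Erythroid (median 2.32) and perivascular markers (median -0.55) had none called. The part of these cell types in the calls was not tested. Between irradiated genotypes 2 of 17 class I-like genes, 3 of 10 loading and trimming genes, 1 of 10 proteasome genes and 2 of 7 tested interferon and receptor genes passed (background 9.84%), and Tpp2, Ide and Calr did so in the same directions as without IR. There, Mr1, a class I-like molecule that presents vitamin metabolites, was lower by -0.43 (SE 0.09, edgeR adjusted p = 0.00384). Psmb7 and Jak2 were higher by 0.15 and 0.23, and Ifngr2 lower by -0.16.

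Across libraries the class I genes did not all vary together. With group means removed, H2-K1 and H2-D1 had a Pearson r of 0.961 over the 24 libraries, and Tapbp and Psmb10 one of 0.901. Reads of H2-K1 and H2-D1 may have been split between them, so their r is uncertain. Tapbp and H2-D1 had an r of -0.348. Over the 45 pairs the median was 0.52, with 24 over 0.5 and 9 below 0. Levels also followed cell type markers: Tapbp had an r of 0.922 with the mean of the epithelial markers and -0.78 with that of the oocyte markers, while H2-K1 had 0.658 with the oocyte markers and -0.306 with the epithelial markers. These are descriptions, since the libraries share tissue makeup, depth and the 2 Chek2-/- libraries that stand apart. The genes whose pattern was most like the mean of the 10, among 15870 compared, included Tgtp2 (r 0.936), Gbp6 (0.936), Herc6 (0.931), Trim34a (0.926), Igtp (0.918), Ddx60 (0.91), Tgtp1 (0.903), Oasl2 (0.902) and Ifih1 (0.898).

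The single-cell libraries placed these genes in cell types. After filters 36524 of 40594 barcodes were kept, 8697 to 9779 per library, at median depths of 13908 to 17135 UMIs (counted molecules). Libraries shared 30 to 73 barcodes with each other, of which 15 to 31 were among the kept cells. Clusters made without the class I genes were called granulosa-like, oocyte-like and so on from marker genes, and are named below by the type alone: 18518 fibroblasts, 13214 granulosa cells, 1152 perivascular cells, 948 epithelial cells, 767 endothelial cells, 687 pericytes, 582 oocytes, 167 theca cells, 155 erythroid cells and 137 macrophages. The erythroid cluster also held granulosa genes and was led in part by the interferon-induced genes Isg20 and Rsad2, and theca cells numbered 6 and 5 in the WT libraries. These classes are given by level only, apart from the summed erythroid ratios in a later section. A level is the UMIs of a gene per 1000000 UMIs of its class in a library, also written as CPM, and with 1 library per condition there is no replicate and no test. Intervals are exact 95% Poisson limits and cover counting error only.

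Among the named classes macrophages, which present antigen professionally, had the highest median level over the 4 libraries of 9 of the 10 genes. The exception was Tapbp, at 161 to 187 CPM in epithelial cells and 122 to 207 in macrophages, ranges that overlap. For Tap2, macrophages (24.6 to 49.5) and endothelial cells (26.0 to 31.8) also overlapped. H2-K1 was at 619 to 770 CPM in macrophages. Granulosa cells followed with 388 to 532 and oocytes with 454 to 509, ranges that overlap. With erythroid and theca cells set aside, epithelial cells (124 to 177) and endothelial cells (102 to 160.0) overlapped next. Pericytes (18.1 to 37.3), perivascular cells (13.5 to 21.3) and fibroblasts (16.4 to 19.5) were the lowest of the rest. Theca cells (11.38 to 22.03) overlapped these, and erythroid cells (136.8 to 287.5) overlapped epithelial and endothelial cells. B2m had another order: 1417 to 1861 in macrophages, 317 to 396 in endothelial cells and 305 to 384 in granulosa cells (overlapping), 109 to 117 in fibroblasts, 68.4 to 81.8 in perivascular cells and 60.4 to 98.6 in oocytes, and the last pair overlap. Nlrc5 was at 13.6 to 21.6 in macrophages, 5.72 to 9.08 in granulosa cells and 0.238 to 0.325 in fibroblasts. An unnamed cluster of 124 cells, whose leading genes include Ccr2, Cxcr6, Cd3g and Trbc2, lay above macrophages in H2-K1 (916 to 1093 CPM), Psmb8 (285 to 420.3) and Tap1 (71.3 to 106) and below them in B2m (834 to 1283).

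The immunoproteasome subunits were higher in endothelial than in granulosa cells in the 4 libraries. Psmb8 was at 150.1 to 221 CPM in macrophages, 60.9 to 89.0 in endothelial cells, 10.5 to 33.9 in epithelial cells and 9.04 to 13.2 in granulosa cells, and the last pair overlap. It was at 0.843 to 2.09 in oocytes and 1.299 to 1.88 in fibroblasts, which also overlap. Psmb9 followed the same first steps, with 71.6 to 101 in macrophages, 22.9 to 33.1 in endothelial cells and 16.5 to 21.8 in granulosa cells. Psmb10 was at 105.4 to 156 in macrophages, 46.6 to 82.4 in epithelial cells, 55.7 to 65.8 in endothelial cells, 28.5 to 30.1 in fibroblasts, 19.6 to 28.2 in perivascular cells and 8.76 to 15.2 in oocytes. Tap1 was at 21.6 to 31.8 in granulosa cells and 17.1 to 28.8 in endothelial cells, which overlap, and at 1.77 to 3.84 in oocytes. H2-D1 was at 1041 to 1333 in macrophages, 299 to 428 in granulosa cells, 177 to 238 in endothelial cells and 37.9 to 79.7 in oocytes, 4 ranges that do not overlap.

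**Figure D2:**
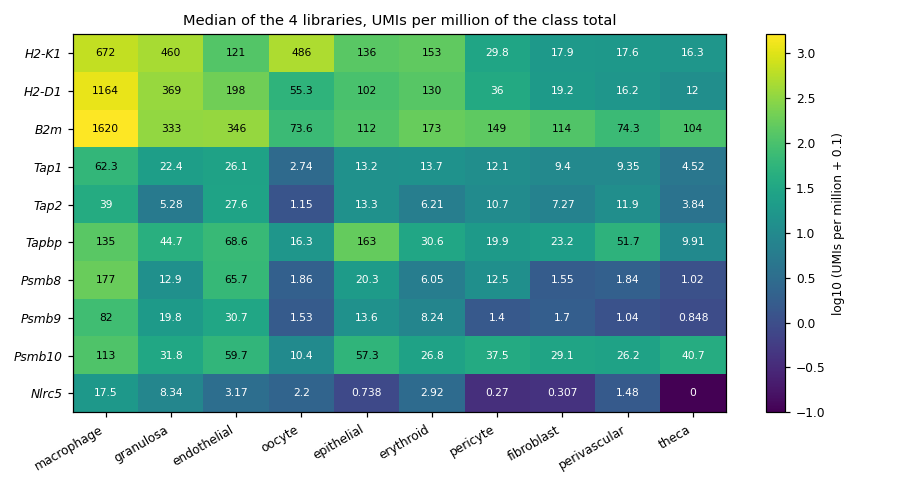
Median level over the 4 single-cell libraries of each class I gene (rows) in each cell class (columns), in CPM of the class total; colour is log10 of the level plus 0.1. Among these named classes macrophages are highest in every row except Tapbp, where epithelial cells are, granulosa cells and oocytes have similar H2-K1 (460 and 486), and the theca column includes WT libraries with 6 and 5 cells.

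Among the abundant somatic classes, granulosa cells differed from fibroblasts most in the heavy chains and their transactivator. H2-K1 was 23.7- to 27.3-fold higher in granulosa cells over the 4 libraries, H2-D1 18.6- to 19.6-fold and Nlrc5 23.99- to 28.9-fold. The Nlrc5 ratio is the least precise of these, with 16 to 21 fibroblast UMIs per library against 1094 to 1258 for H2-K1. The immunoproteasome subunits Psmb9 (9.88- to 13.7-fold) and Psmb8 (6.58- to 10.2-fold) were next, and B2m (2.80- to 3.29-fold), Tap1 (1.69- to 2.53-fold) and Tapbp (1.85- to 2.03-fold) differed less. Psmb10 was nearly equal (1.05- to 1.17-fold) and Tap2 was lower in granulosa cells (0.612- to 0.896-fold). The constitutive subunits Psmb5, Psmb6 and Psmb7 that the immunoproteasome replaces were at 1.05- to 1.41-fold. Inha, a granulosa gene that fibroblasts should lack, was 39.1- to 44.7-fold higher in granulosa cells. Other granulosa genes ranged widely, at 3.82- to 4.68-fold (Kitl), 44.0- to 55.0-fold (Inhbb), 46.2- to 57.9-fold (Nr5a2), 71.65- to 86.9-fold (Fst) and 71.55- to 91.4-fold (Amh). Of the class I genes, H2-K1 and Nlrc5 had the ratios nearest to that of Inha. How much of their fibroblast level is free RNA was not tested.

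**Figure D3:**
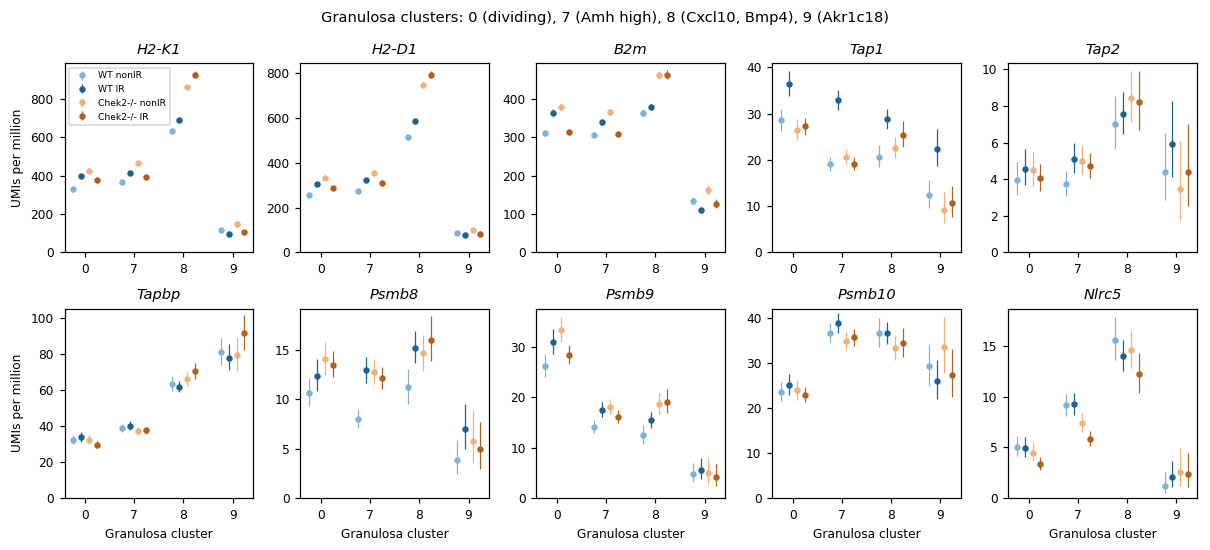
CPM of each class I gene (linear axes from 0) in the 4 granulosa clusters, a point per library with exact 95% Poisson limits. Cluster 8 is highest for H2-K1, H2-D1, B2m and Nlrc5 in every library, cluster 0 for Psmb9, and cluster 9 for Tapbp.

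Granulosa cells were not uniform. Cluster 8, led by Bcan, Bmp4 and Cxcl10, had H2-K1 at 630 to 927 CPM, cluster 7, led by Amh and Nppc, had 365 to 464, and cluster 0, whose leading genes include Amh with the mitotic genes Plk1 and Cdc20, had 333 to 425. Cluster 9, led by Akr1c18, had 98.2 to 147. The order of clusters 8 and 9 against the others was the same in the 4 libraries, and clusters 7 and 0 overlapped. Nlrc5 was likewise highest in cluster 8 (12.2 to 15.6, against 3.34 to 5.07 in cluster 0). Psmb9 was highest in cluster 0 (26.2 to 33.3, against 12.6 to 19.1 in cluster 8). Tapbp had another order, with 77.9 to 91.3 in cluster 9, 61.7 to 70.3 in cluster 8, 37.2 to 40.2 in cluster 7 and 29.5 to 33.8 in cluster 0.

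Oocytes had H2-K1 at about the granulosa level and the other 9 genes below it. Their H2-K1 level was 92.8% to 123% of the granulosa level in the same library. As in bulk, exons shared in part with H2-D1 and the H2-Q genes leave the heavy chain values uncertain as to the gene. H2-D1 was at 9.30% to 26.6%, B2m at 15.7% to 32.3%, Tap1 at 7.95% to 17.8%, Tap2 at 16.5% to 27.2%, Psmb8 at 6.37% to 19.5% and Psmb9 at 4.63% to 21.3%. Tapbp was at 33.9% to 41.4%, Psmb10 at 28.0% to 44.8% and Nlrc5 at 10.7% to 62.3%, the widest of these ranges. Genes of granulosa cells that oocytes should lack were at 3.26% to 7.09% (Inha), 1.51% to 3.47% (Amh) and 6.81% to 13.8% (Kitl). The source of these transcripts in oocytes was not tested. The ranges of Psmb8, Psmb9, Tap1, H2-D1 and Nlrc5 reach down to that of Kitl, and that of H2-K1 does not. The constitutive subunits Psmb6 and Psmb7 were at 129% to 142% and 174% to 207% of the granulosa level and Psmb5 at 78.4% to 98.7%. The chaperones Calr, Canx and Pdia3 were at 82.6% to 104.9%, 73.2% to 91.5% and 78.9% to 89.2%.

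**Figure D4:**
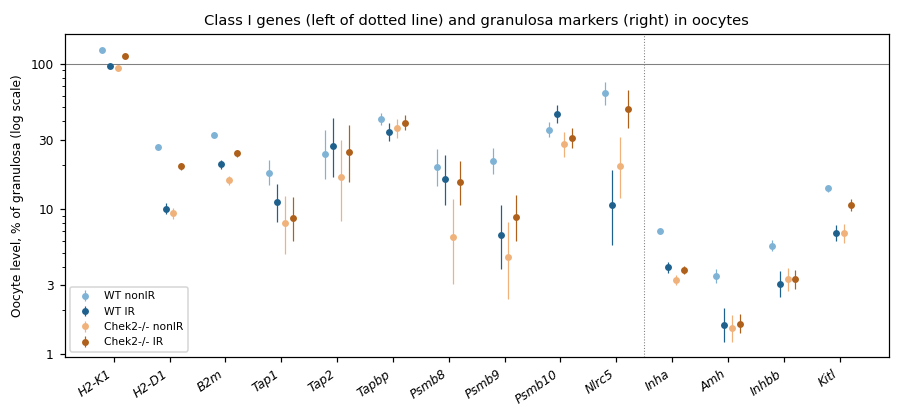
Level in oocytes as a percentage of the granulosa level in the same library (log axis) for the class I genes and, right of the dotted line, for 4 granulosa markers, with a point per library and exact 95% limits of the counts. H2-K1 lies at 92.8% to 123%, the other class I genes lie lower, and Inha marks 3.26% to 7.09%.

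The share of oocytes with an H2-K1 UMI showed the same. With every cell thinned to 3000 UMIs, which left out 2 to 51 oocytes per library as too shallow, H2-K1 was found in 64.0% to 78.1% of oocytes, 56.8% to 66.0% of granulosa cells and 4.41% to 5.69% of fibroblasts (unthinned, 88.9% to 96.0%, 89.6% to 92.8% and 18.1% to 23%). In the thinned oocytes H2-D1 was found in 17.5% to 25%, B2m in 20.2% to 26.7% and the granulosa gene Inha in 12.3% to 20.1%. Inha was found in 84.4% to 89.9% and H2-D1 in 49.5% to 61.0% of thinned granulosa cells, so the share of oocytes with an Inha UMI is no direct measure of the background of H2-D1. Median depth was 14183 to 181498 UMIs in oocytes, 19349 to 23048 in granulosa cells and 11224 to 13096 in fibroblasts. Divided by depth into 5 sets of 116 or 117 cells, oocytes had H2-K1 at 364 to 582 CPM, with no order by depth, while Inha went from 160.5 in the shallowest set to 58.9 in the deepest. Divided into 9 sub-clusters, oocytes had H2-K1 at 394 to 579 CPM in 8 of them. Sub-cluster 0, 67 cells with the growth factor Gdf9 at 5133 CPM, had 166.

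In WT ovaries, 4 somatic classes had more Tap1 in the IR library than in the nonIR library, beyond counting error. In fibroblasts it was 18.8 CPM in IR against 8.80 in nonIR, a ratio of 2.14 (1.94 to 2.36). In epithelial cells the values were 30.4 against 12.5 (2.43, 1.85 to 3.23), in granulosa cells 31.8 against 21.6 (1.47, 1.38 to 1.57) and in perivascular cells 16.3 against 8.96 (1.82, 1.17 to 2.85). Endothelial cells (1.23, 0.933 to 1.62), macrophages (1.06, 0.628 to 1.83) and oocytes (0.916, 0.637 to 1.299) had intervals that include 1. In Chek2-/- libraries the ratios were 1.14 (1.02 to 1.27) in fibroblasts, 1.3 (0.930 to 1.83) in epithelial cells, 1.01 (0.949 to 1.08) in granulosa cells and 1.23 (0.684 to 2.24) in perivascular cells. Endothelial cells had the reverse order of genotypes, with 1.69 (1.199 to 2.40) in Chek2-/-, as had oocytes (1.11, 0.627 to 2.002). Macrophages had too few Tap1 UMIs in Chek2-/- (15 in nonIR and 20 in IR) for a ratio to be read. No ratio was tested between genotypes, since each rests on 2 libraries.

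The Tap1 ratio was above 1 in WT within each fibroblast and granulosa cluster. In WT it was 2.55, 1.76, 1.85 and 1.92 in fibroblast clusters 1, 2, 3 and 4, and 1.28, 1.73, 1.39 and 1.82 in granulosa clusters 0, 7, 8 and 9. In Chek2-/- it was 1.15, 1.11, 1.12 and 1.18 in the fibroblast clusters and 1.03, 0.923, 1.13 and 1.15 in the granulosa clusters. In fibroblast cluster 2 the Chek2-/- ratio rests on 16 UMIs in nonIR and 18 in IR (0.533 to 2.32). These are under the limit of 50 UMIs, so that ratio was too uncertain to be compared. In the other clusters the WT value was the higher one. The counting intervals of the genotypes overlapped in granulosa clusters 0, 8 and 9. They did not overlap in fibroblast clusters 1, 3 and 4 and granulosa cluster 7. All these clusters share the same 4 libraries.

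**Figure D5:**
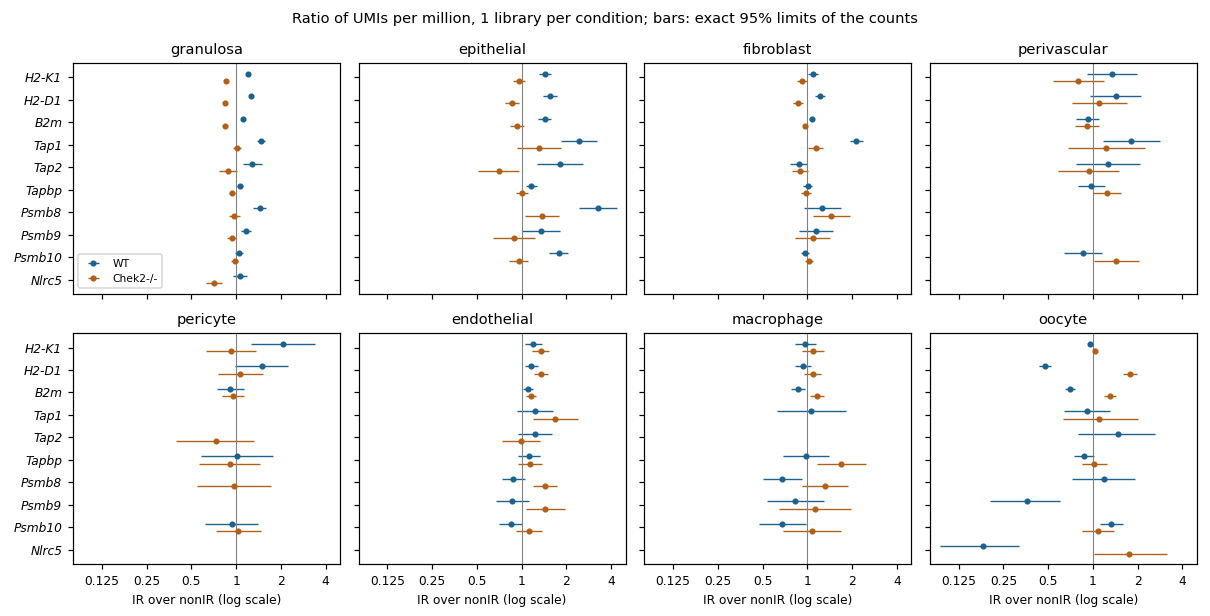
Ratio of IR over nonIR in CPM for each class I gene in 8 cell classes (log axis), WT and Chek2-/-, 1 library per condition, with exact 95% limits of the counts; genes with under 50 UMIs over both libraries are left out. WT epithelial cells lie to the right for most genes, up to 3.24 for Psmb8, and Tap1 is right of 1 in WT fibroblasts, granulosa and perivascular cells.

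Epithelial cells were the class with the most class I genes past the 1.5-fold limit in the irradiated WT library. Of the 9 genes with at least 50 UMIs, 5 were at least 1.5-fold higher, where 7.89% of all 11040 genes with as many UMIs were. Psmb8 was at 33.9 against 10.5 CPM (3.24, 2.42 to 4.4). Psmb10 had a ratio of 1.77 (1.53 to 2.06), Tap2 of 1.80 (1.27 to 2.59), H2-D1 of 1.55 (1.38 to 1.74), H2-K1 of 1.43 (1.3 to 1.57) and B2m of 1.43 (1.3 to 1.58). The sum of the 10 genes was 830 against 569 CPM (1.459). In Chek2-/- epithelial cells 0 of 9 were 1.5-fold higher (background 2.76%), and the sum was 615 against 643 (0.956). Psmb8 was 23.5 against 17.2 CPM there (1.36, 1.05 to 1.77).

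Isg15 and Cdkn1a, looked up after their values were seen, were also higher in irradiated WT cells. Isg15, a ubiquitin-like interferon target, was 655 against 36.1 CPM in WT epithelial cells and 37.5 against 32.9 in Chek2-/-. In granulosa cells Isg15 was 37.2 against 1.73 in WT and 1.29 against 1.67 in Chek2-/-. Cdkn1a, the p53 target that halts the cell cycle, was 74.1 against 4.88 in WT granulosa cells and 5.14 against 2.38 in Chek2-/-. In WT fibroblasts, where Tap1 had a ratio of 2.14, Psmb8 had one of 1.26 (0.952 to 1.68). In Chek2-/- fibroblasts the Psmb8 ratio was 1.445 (1.09 to 1.93), the larger of the 2 genotypes.

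Over granulosa cells taken as 1 class, no class I gene reached a 1.5-fold difference in either genotype (0 of 10 higher, with a background of 4.02% in WT and 1.62% in Chek2-/-, and 0 of 10 lower, with 2.16% and 2.67%). The WT ratios ran from 1.05 (Psmb10, 0.989 to 1.11) to 1.47 (Tap1), and the summed genes were at 1349 against 1130 CPM (1.194). The Chek2-/- sum was at 1277 against 1491 (0.856). Within single clusters, Tap1 and Psmb8 passed 1.5-fold in WT clusters 7 and 9, where 95% of all genes lay under 1.29 and 1.36. Psmb8 was at 1.62 (1.38 to 1.90) and 1.79 (1.04 to 3.17) there, and at 1.17 and 1.36 in WT clusters 0 and 8. No class I gene passed in the Chek2-/- granulosa clusters. The makeup of the class differed too: cluster 8, the one with the highest heavy chain levels, held 700 of 2980 granulosa cells in WT nonIR, 1129 of 3582 in WT IR, 947 of 3192 in Chek2-/- nonIR and 688 of 3460 in Chek2-/- IR. Within clusters 0, 7, 8 and 9 the summed ratios were 1.179, 1.148, 1.094 and 0.913 in WT, all under that of the class, and 0.871, 0.864, 1.052 and 0.845 in Chek2-/-. For the sum over the whole class, the nonIR libraries of the genotypes (1130 and 1491 CPM) differed from each other by more than IR did within either. Tap1 did not follow this, at 21.56 CPM in WT nonIR and 22.25 in Chek2-/- nonIR with a WT ratio of 1.47. A difference between 2 libraries cannot be told apart from a difference between conditions. In fibroblasts 1 of 9 genes passed 1.5-fold in WT (Tap1, background 1.97%) and 0 of 9 in Chek2-/- (background 2.33%), and the sums were 236 against 214 (1.099) and 222 against 230 (0.968). Macrophages had the reverse direction, with 3666 against 4094 in WT (0.896) and 4702 against 4085 in Chek2-/- (1.151), from only 23 to 54 cells per library.

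The vascular classes and macrophages gave few differences past the 1.5-fold limit. In endothelial cells 0 of 9 genes were 1.5-fold higher in WT (background 2.21%) and 1 of 9 in Chek2-/- (Tap1, background 2.37%). Psmb8, which is abundant there, was at 60.9 against 69.2 CPM in WT (0.881, 0.742 to 1.045) and at 89.0 against 62.2 in Chek2-/- (1.43, 1.19 to 1.72). Their summed genes were at 964 against 888 in WT and 1112 against 890.0 in Chek2-/-, so endothelial cells had the larger ratio in the genotype without CHEK2. Perivascular cells had 1 of 7 in WT (Tap1, background 2.9%) and pericytes 1 of 5 (H2-K1 at 37.3 against 18.1 CPM from 51 and 27 UMIs, background 3.15%). In Chek2-/- macrophages 1 of 7 passed (Tapbp, 1.69, 1.16 to 2.48, background 7.13%).

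With UMIs summed over cells, H2-D1, B2m, Psmb9, Nlrc5 and, by a small ratio, H2-K1 were lower in WT IR than in WT nonIR oocytes, beyond counting error. The 5th and 95th percentiles of the same ratio over all genes with at least 50 UMIs were 0.49 and 2.45. For H2-D1 and B2m the shares of cells at 3000 UMIs did not follow these levels. H2-D1 was found in 25% of WT IR oocytes (17.5 to 33.7) against 17.5% in WT nonIR (12.3 to 23.6), and B2m in 26.7% (19.0 to 35.5) against 24.3% (18.4 to 31.1), with overlapping exact binomial intervals. Psmb10 was higher there, at 15.2 against 11.4 CPM (1.33, 1.11 to 1.59). H2-D1 was at 79.7, 37.9, 39.8 and 70.8 CPM in WT nonIR, WT IR, Chek2-/- nonIR and Chek2-/- IR, and Nlrc5 at 5.36, 0.972, 1.60 and 2.80. The granulosa gene Inha, at 94.5, 44.9, 51.7 and 64.9 in the same oocytes, had the same order of the 4 libraries. The part of granulosa RNA in the H2-D1 and Nlrc5 values of oocytes was not tested. H2-K1 had another order, at 477, 454, 494 and 509 CPM, and differed by ratios of only 0.95 (0.922 to 0.979) in WT and 1.03 (0.998 to 1.07) in Chek2-/- oocytes. At the 1.5-fold limit 3 of 10 genes were lower in WT (H2-D1, Psmb9 and Nlrc5, background 13.2%) and 2 of 7 higher in Chek2-/- (H2-D1 and Nlrc5, background 6.99%). Numbers of oocytes were 196, 171, 75 and 140. Their median depths were 181498, 14183, 159208 and 120518 UMIs, so the WT IR oocytes stood apart, and the part of depth in these values was not tested beyond the shares given above. The libraries also differed in their sub-clusters. Sub-cluster 3, with H2-D1 at 128.7 and Inha at 126.4 CPM, held 87 of 196 WT nonIR and 5 of 171 WT IR oocytes. A sub-cluster of 77 oocytes, all from the WT IR library, had H2-K1 at 542 and H2-D1 at 22.9 CPM. Other sub-clusters with many WT IR oocytes had more H2-D1. Sub-cluster 4, with 20 of its 22 cells from WT IR, had H2-D1 at 217.7, B2m at 176.1 and Inha at 103.8 CPM. It also had the lowest levels of the oocyte genes Dazl (145.4 CPM) and Figla (201.5 CPM) among the sub-clusters. Sub-cluster 7, with 40 of its 70 cells from WT IR, had H2-D1 at 108.9, B2m at 106.4 and Inha at 92.4 CPM. The part of granulosa RNA in these sub-cluster values was not tested.

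H2-Q2, which rose in irradiated WT ovaries in bulk, was found almost entirely in oocytes. It was at 15.5 CPM in oocytes of the WT IR library (207 UMIs) against 1.49 in WT nonIR (43 UMIs), a ratio of 10.4 (7.47 to 14.8). In Chek2-/- oocytes it was at 2.07 against 1.85 (1.12, 0.642 to 1.99). In each of the other classes at most 7 H2-Q2 UMIs were found per library. Inha had a ratio of 0.475 (0.434 to 0.519) in the same WT oocytes. H2-Q2 is close in sequence to other H2-Q genes, so this value too is uncertain as to the gene.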

How the data were processed

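Bulk RNA-seq was done on 24 ovary libraries and single-cell RNA-seq on 4. For bulk RNA, the authors trimmed reads with Trim Galore 0.6.5 and deposited the expected counts per gene that Salmon 1.3.0 estimated, which need not be whole. For single cells, the authors deposited UMI counts per gene and barcode from Cell Ranger (3.0.2 in the matrix headers, version 4 in the methods), mapped to mm10.

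Expected counts were rounded, and genes with at least 10 counts over the 24 libraries were tested with edgeR 4.0.16 (TMM, glmQLFit and glmQLFTest, 1 coefficient per group) in R 4.3.3, with Benjamini-Hochberg adjustment and a threshold of 0.05. CPM are the rounded counts per 1000000 after TMM scaling, with a prior count of 2 on the log2 scale. The study's own rule also asks for a 2-fold change. The script was tested on simulated counts. Nothing in the labels says more than that the samples of a group were separate, so p-values measure the spread between these samples. No pair of replicates agreed within sampling noise (chi-square per degree of freedom of 5.85 or more over 60 pairs). Of 44674 genes, 44152 were given a symbol from the single-cell gene list or the reference annotation.

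Cells with at least 1000 genes, at most 20% mitochondrial and at most 50% ribosomal UMIs were kept, Scrublet doublets (4.02% to 5.47% per library) were removed, and 2000 variable genes without the class I genes and their pathway lists were clustered in scanpy 1.11.5 (30 principal components, 15 neighbours, Leiden resolution 0.5). A cluster took a name where at least 60% of a marker list and 3 or more markers passed. A marker passed when it was in 25% of the cells of the cluster and 2-fold over the median of the clusters. The summed level of the list also had to reach 25% of that in the highest cluster. A cluster with 3 or more mast cell proteases among its leading genes was left unnamed. These limits were set after the clusters were seen, and 197 cells were left unnamed. Ratios were read for genes with 50 UMIs or more, past a limit of 1.5-fold.

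The members, the marker lists and the pathway lists were chosen with earlier results of these data known. The text names all 10 members, at most 5 genes of each pathway list that passed a comparison or else its 3 most abundant, the 10 genes most alike, and Chek2. 1 of the genes most alike is not reported here. Irf9, H2-Bl, H2-M5, Hspa5, Canx, Isg15 and Cdkn1a lie outside this rule, as do single-cell reference genes. DESeq2 1.42.0, limma-voom (limma 3.58.1), other scalings and filters, a replicate block and leaving out each library were tried as alternatives. The authors' cell annotation and Seurat objects were not used here.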

Additional observations from a re-analysis of the deposited data

Results flagged for a closer look

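In 5 of 40 sets of 6 values (10 genes in 4 bulk groups), a single library lay further from the rest than Dixon's 95% critical value of 0.625 allows, and chance flags about 1 in 20. In Chek2-/- IR replicate 6, Tapbp was at 156.7 CPM, Psmb8 at 15.2 CPM and Psmb10 at 27.5 CPM. This is the library with few oocyte and many epithelial marker transcripts. In Chek2-/- nonIR, B2m was at 187.1 CPM in replicate 1, with the next library at 157.6 CPM, and Tap1 at 15.4 CPM in replicate 5, with the next at 12.5 CPM. The latter library had summed erythroid markers of 10450 CPM, and their part in its Tap1 value was not tested.

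The summed level of the 10 genes differed between IR and nonIR in opposite directions in the genotypes in 5 cell classes whose counting intervals lay on opposite sides of 1, with 1 library per condition, and the difference was not tested. Erythroid cells (1.615 and 0.9591) and pericytes (1.107 and 0.9839) also had ratios on either side of 1, with intervals that include 1 in at least the Chek2-/- ratio. The erythroid cluster also held granulosa genes and was led in part by interferon-induced genes. The ratio of IR over nonIR in WT and in Chek2-/- was 1.459 and 0.9558 in epithelial cells, 1.099 and 0.9679 in fibroblasts, 1.194 and 0.8562 in granulosa cells, 0.8955 and 1.151 in macrophages, and 0.8575 and 1.11 in oocytes. In granulosa clusters 0 and 7 the directions were opposite as well, in cluster 8 both ratios were above 1 (1.094 and 1.052) and in cluster 9 both below it (0.9131 and 0.8446), and the share of granulosa cells in cluster 8 differed between the libraries.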

How the results depend on the processing

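With the 2-fold rule, 288 genes were called for IR in WT, 1 for IR in Chek2-/-, 167 for the interaction, 211 between nonIR genotypes and 639 between irradiated genotypes (646, 3, 277, 1430 and 2636 without it). DESeq2 called 14 genes for IR in Chek2-/-, 458 for the interaction and 2507 between nonIR genotypes. With only the groups compared in the fit, 1 gene was called for IR in Chek2-/- and 785 between nonIR genotypes. Of the class I genes, DESeq2 called 1 (Tap1, adjusted p 0.0309) for IR in WT and 1 (Tap1, 0.0370) between irradiated genotypes, and limma-voom 1 (Tap1, 0.0441) in the latter. Leaving out each library gave 516 to 657 genes for IR in WT, 2 to 4 for IR in Chek2-/-, 221 to 323 for the interaction, 573 to 1794 between nonIR genotypes (675, 716 and 573 without WT nonIR replicates 2, 3 and 4, and 807 without Chek2-/- nonIR replicate 1) and 1808 to 2694 between irradiated genotypes. It gave 0 to 1 class I genes called for IR in WT and between irradiated genotypes, and 0 in the other 3 comparisons. Without both Chek2-/- libraries numbered 6, an alternative chosen after seeing the data, 1 class I gene (Tap1, log2 difference -0.75, adjusted p 0.00374) was called between irradiated genotypes. Of 1150 values of single class I genes under the alternatives, 8 moved past the threshold, 0 moved out of it and 89 changed sign with neither value past it. The causes were not tested.

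The replicate numbers are shared between groups, but the labels do not say that they pair samples. Of 24 pairs of same-numbered libraries, 13 had a correlation of deviations over 0.1 (range -0.194 to 0.657), and 9 correlated best with their own number. Between Chek2-/- nonIR and IR this held for replicates 3, 4, 5 and 6 (0.385, 0.378, 0.235 and 0.657). Between WT nonIR and IR it held for replicate 5 alone (0.397). As the labels name no pairs, the libraries were not treated as paired. With a replicate block, 1 class I gene (Tap1) was called for IR in WT (0.62, adjusted p 0.0119) and 1 (Tap1) between irradiated genotypes (-0.54, 0.0115). Genes called were 661, 4, 281, 2025 and 3125 in the order above.

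In single cells, the summed ratio in WT granulosa cells was 1.173 without mitochondrial and ribosomal protein genes in the total and 1.181 with doublets kept, and in WT oocytes 0.8112 without those genes. With at least 2000 genes per cell the Chek2-/- macrophage ratio was 1.009, and at Leiden resolution 1 the Chek2-/- epithelial ratio was 0.891. The other 67 of 72 summed ratios, and all 71 Tap1 ratios, stayed within their counting intervals. No theca class was found with doublets kept, with 2000 genes or at resolution 1, and no erythroid class at resolution 1. Genes under about 3 CPM, such as Psmb9, and classes of under 60 cells are the least precise.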
